A study of Mus musculus with 9 samples.

Results

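The 40 genes described here act in mitosis, the division of the copied chromosomes between daughter cells. They are a fixed list of gene symbols, matched among 54532 gene IDs in the count table, and all 40 were found through the names of GENCODE M21. By role they were 2 genes of proliferation and chromosome structure, 6 of mitotic entry, 6 mitotic kinases and their partners, 4 of the spindle checkpoint, 6 of the kinetochore and centromere, 7 spindle proteins and motors, 6 of cytokinesis and 3 of anaphase promotion. In the edgeR analysis 39 of the 40 were among the 14763 genes with enough counts to be tested. The exception was Cdc25c, a phosphatase that activates the mitotic kinase, with 0 to 2 counts in each normal diet library and 47 in HFD + PBS replicate 3.

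Mitosis genes are transcribed late in the cell cycle, as a block. In resting cells the DREAM complex holds them silent, and in cycling cells its MuvB core works with B-MYB and FOXM1 as an activator, through a promoter element called the CHR (cell cycle genes homology region) that often lies beside CCAAT boxes bound by NF-Y. Adult hepatocytes rarely divide, so whole-liver RNA holds few of these transcripts, and they can come from any cell in the organ that is dividing, including blood cells and their precursors.

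RNA of 9 livers was sequenced, 1 library per liver, in 3 groups of 3. All mice were male, C57BL/6 and ApoE-/- per the labels, so that the controls also lack apolipoprotein E and the plasma lipid clearance it serves. The first group received a normal diet (replicates 4, 5 and 6). The second received a high-fat diet (fat gave 41% of its calories) for 20 weeks, begun at 4 weeks of age, then 1 week of chow, and injections of PBS into the peritoneum at 25, 26 and 27 weeks of age (HFD + PBS, replicates 3, 4 and 6). The third had the same diet and 3 mg of recombinant human IgG1, an antibody whose target the labels do not name, on the same schedule (HFD + IgG1, replicates 5, 6 and 7). Injected mice were killed at 29 weeks. For the normal diet group, age at death and any injection were not given in the sources used, so diet cannot be told apart from age or injection. Livers were picked for sequencing by their lipid staining and triglyceride values.

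Total counts per library were 16215194 to 18538463. Libraries at odds with their labels numbered 3. HFD + IgG1 replicate 5 had 235888 counts of Apoe, the deleted gene, against 225 to 1655 in the other 8 libraries. Normal diet replicate 5 and HFD + PBS replicate 6 had 17065 and 10970 counts of Xist, the RNA of the inactive X chromosome in females, against at most 4 elsewhere, and 0 counts of Y-linked genes against 2837 to 3385. The titles and the series design put replicates 5, 6 and 7 of HFD + IgG1 in 1 group, while a second label reads IgG1, IgG2 and IgG3 for them. Hepatocyte markers were abundant in every library, with 48533 to 163050 summed CPM (counts per 1000000, with TMM scaling between libraries) over 8 genes, and markers of skeletal muscle and pancreas summed to at most 1.85 CPM.

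The promoters of the mitosis genes were searched for the letters of both elements. RefSeq windows on GRCm38.p6, from 250 bases before to 50 bases after the RefSeq transcript start, matched 33 of the 40 genes. The CHR was searched as TTTGAA or TTCGAA and the CCAAT box as CCAAT, both on either strand, so that TTCAAA and ATTGG also count; TTCGAA is its own reverse complement and is counted once, and a CHR and a CCAAT match may share a base. A CHR match lay in the windows of 24 of the 33 genes (72.7%), against 19.2% of 32851 windows of the same length in the RefSeq table. A CCAAT match lay in 24 of 33 (72.7%) against 37.4%, and both lay in 21 (63.6%) against 7.52%. The 250 bases before the RefSeq start are printed 5′ to 3′ on the gene's strand, with matches to either motif in capitals, for the 4 most abundant genes that hold a CHR match and for Pttg1, a gene with no match that was chosen after its values were seen. Mki67 lies at chr7:135716380-135716629 (minus strand), Top2a at chr11:99024190-99024439 (minus strand), Cenpa at chr5:30666636-30666885 (plus strand), Kif11 at chr19:37376132-37376381 (plus strand) and Pttg1 at chr11:43425982-43426231 (minus strand).
Mki67: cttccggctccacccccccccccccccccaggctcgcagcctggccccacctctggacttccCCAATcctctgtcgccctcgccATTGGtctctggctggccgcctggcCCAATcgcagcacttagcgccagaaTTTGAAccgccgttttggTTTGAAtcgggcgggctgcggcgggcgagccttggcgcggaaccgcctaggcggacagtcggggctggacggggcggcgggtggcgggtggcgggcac
Top2a: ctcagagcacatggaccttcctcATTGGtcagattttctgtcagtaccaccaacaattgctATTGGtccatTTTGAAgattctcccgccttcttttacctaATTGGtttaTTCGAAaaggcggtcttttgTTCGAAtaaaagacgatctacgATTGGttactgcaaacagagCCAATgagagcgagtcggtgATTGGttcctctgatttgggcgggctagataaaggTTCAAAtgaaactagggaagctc
Cenpa: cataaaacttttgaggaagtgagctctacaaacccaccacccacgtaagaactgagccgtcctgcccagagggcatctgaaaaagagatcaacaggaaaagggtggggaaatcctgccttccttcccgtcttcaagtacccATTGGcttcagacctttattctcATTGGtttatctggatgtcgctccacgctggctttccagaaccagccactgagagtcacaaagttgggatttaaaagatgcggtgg
Kif11: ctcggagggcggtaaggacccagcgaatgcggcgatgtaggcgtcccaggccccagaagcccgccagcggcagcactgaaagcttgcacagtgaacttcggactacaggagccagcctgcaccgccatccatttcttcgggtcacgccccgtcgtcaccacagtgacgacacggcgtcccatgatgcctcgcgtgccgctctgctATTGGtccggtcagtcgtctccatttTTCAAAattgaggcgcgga
Pttg1: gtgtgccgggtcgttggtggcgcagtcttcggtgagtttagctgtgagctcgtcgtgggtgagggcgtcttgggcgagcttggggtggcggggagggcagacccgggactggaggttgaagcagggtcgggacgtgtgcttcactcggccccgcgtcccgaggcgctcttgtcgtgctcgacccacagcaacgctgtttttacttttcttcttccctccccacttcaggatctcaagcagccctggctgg

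For 5 genes, Ccnb1, Cenpa, Kif2c, Kif4 and Pttg1, the RefSeq start lies more than 50 bases downstream of the outermost start in GENCODE M21, by 109 bases for Cenpa and 270 for Pttg1. The stretch printed for Pttg1 thus lies wholly inside the GENCODE gene, and the bases before its outer start were not searched.

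Mki67 had 2 CHR and 3 CCAAT matches, Top2a had 4 and 6, and Kif11 had 1 of each. Cenpa had 2 CCAAT matches in the printed stretch and its only CHR match 16 bases after the start, outside it. Neither motif was found in the RefSeq windows of Pttg1, Birc5, Melk, Mad2l1, Nuf2 and Nusap1. The window of Mad2l1 ends at base 66535270, before the GENCODE start of that gene at 66535390, so the bases next to that start were not searched. Such matches are letters in a window and not shown sites, and no binding was measured in this series.

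Levels of the mitosis genes varied widely between livers of the same high-fat diet group. They were far above the normal diet level in HFD + PBS replicate 3, clearly above it in HFD + PBS replicate 6, moderately above it in HFD + IgG1 replicate 6, and near or below it in the other libraries. Summed over the 40 genes, levels were 80.6, 68.0 and 82.8 CPM in the normal diet libraries, 629.7, 66.8 and 222 in HFD + PBS and 57.4, 132 and 58.2 in HFD + IgG1, in the replicate order given above, which holds for all values that follow. HFD + PBS replicate 4 thus lay below all 3 normal diet libraries while its group partners lay above every other library. The median fold over the normal diet mean across the 40 genes was 10.8 in HFD + PBS replicate 3, 3.88 in replicate 6 and 0.83 in replicate 4, and it was 2.21 in HFD + IgG1 replicate 6. In whole liver a larger share of dividing cells and more of these RNAs per cell cannot be told apart.

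HFD + PBS replicate 3 held the highest CPM for 38 of the 40 genes, against 20.3% of all tested genes that were highest in that library. The exceptions were Pttg1 and Spc25. The full order, HFD + PBS replicate 3, then HFD + PBS replicate 6, then HFD + IgG1 replicate 6, then the other 6 libraries, was found for 29 of the 40, against 3.16% of all tested genes. Against the 3 normal diet libraries, 38 genes were above all of them in HFD + PBS replicate 3, 37 in HFD + PBS replicate 6 and 30 in HFD + IgG1 replicate 6, where 32.6%, 27.2% and 22.6% of all tested genes were. HFD + PBS replicate 4 and HFD + IgG1 replicates 5 and 7 had 13, 23 and 21 of the 40 below all 3 normal diet libraries, where 30.9%, 28.5% and 31.2% of all tested genes were, so that the 13 are close to the share over all genes. Within HFD + PBS the SD of CPM exceeded the mean for 24 of the 40 genes, within HFD + IgG1 for 13, and in the normal diet group for 0.

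**Figure D1:**
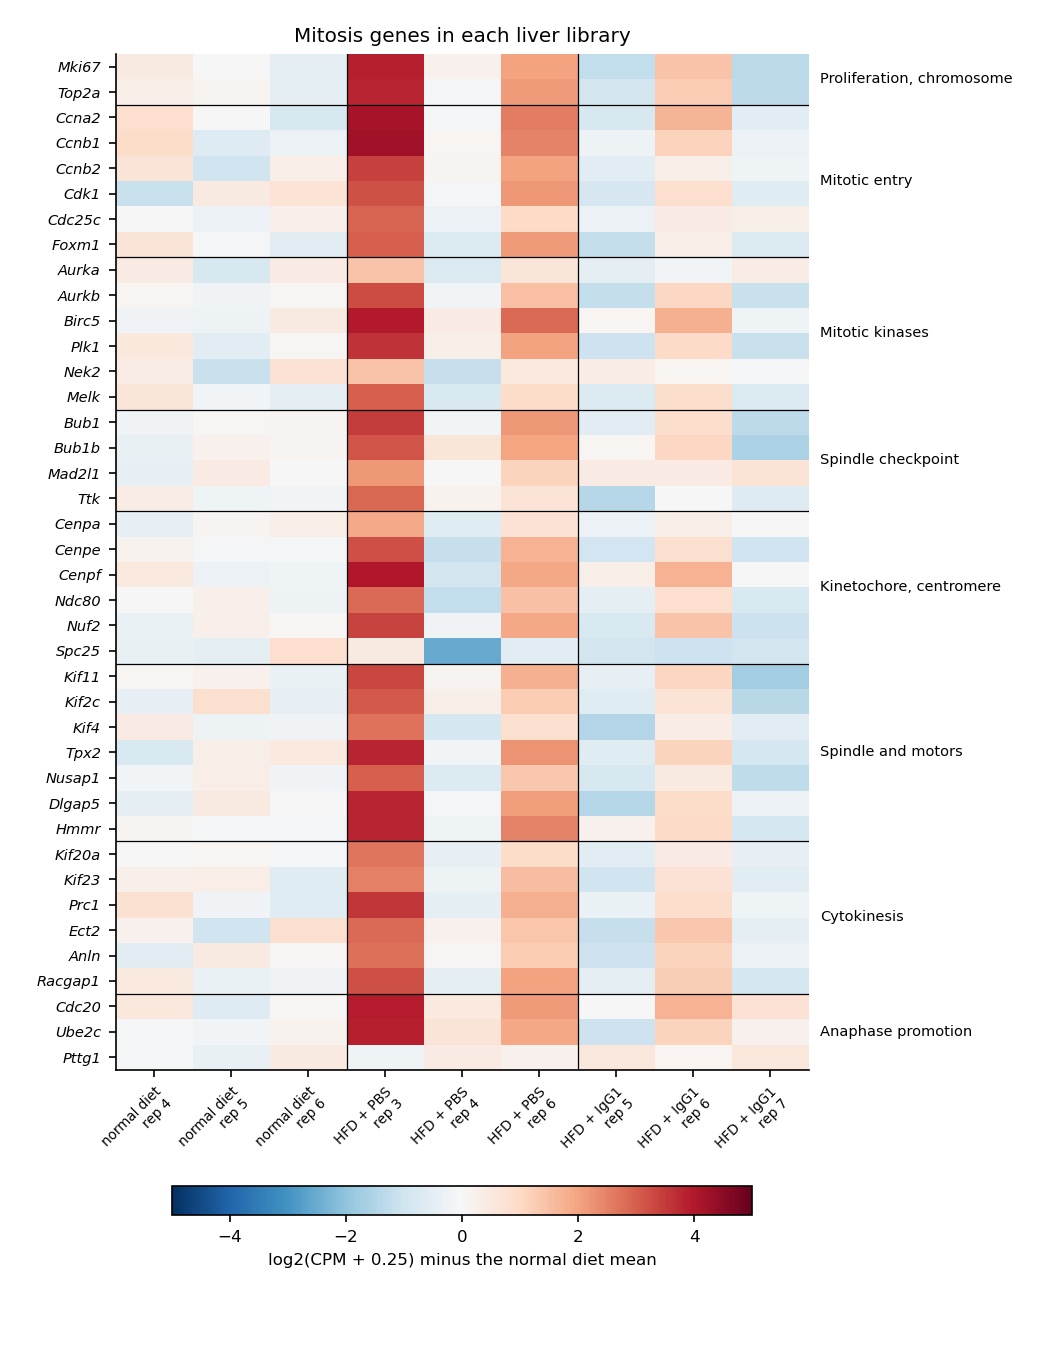
Level of each of the 40 mitosis genes (rows, by role) in each of the 9 liver libraries (columns), as log2(CPM + 0.25) minus the mean of the 3 normal diet libraries, with red above and blue below that mean. HFD + PBS replicate 3 is the reddest column, with 38 of 40 genes at their highest there, and HFD + PBS replicate 6 and HFD + IgG1 replicate 6 come next.

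Genes of proliferation and chromosome structure come first. Mki67 (ENSMUSG00000031004, chromosome 7, 135689784 to 135716361, minus strand) encodes the Ki-67 protein that coats mitotic chromosomes and serves as the standard marker of cycling cells. Its levels were 10.1, 7.50 and 5.09 CPM in the normal diet livers, 111, 8.51 and 30.1 in HFD + PBS and 2.99, 19.9 and 2.72 in HFD + IgG1. All groups overlapped, since HFD + PBS replicate 4 lay within the normal range and HFD + IgG1 replicate 6 lay above it. Top2a (ENSMUSG00000020914, chromosome 11, 98992943 to 99024189, minus strand), the topoisomerase that untangles sister chromatids, had 6.28, 5.61 and 3.65 CPM, 74.5, 4.68 and 23.3 and 2.57, 12.5 and 1.87 in the same groups. Its order over the 3 highest libraries was that of Mki67, and HFD + PBS replicate 4 again lay inside the normal diet range. The fitted log2 fold change of HFD + PBS over normal diet was 2.72 (SE 1.11) for Mki67 and 2.72 (SE 1.06) for Top2a, with edgeR adjusted p of 0.224 and 0.209. For HFD + IgG1 over HFD + PBS it was -2.53 (SE 1.10) and -2.58 (SE 1.05), with edgeR adjusted p of 0.212 and 0.190.

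Mitotic entry is driven by the kinase Cdk1 bound to cyclins A and B. Cdk1 (ENSMUSG00000019942, chromosome 10, 69335146 to 69352938, minus strand) had 0.427, 1.72 and 2.10 CPM in normal diet livers, 13.0, 1.14 and 6.28 in HFD + PBS and 0.57, 2.35 and 0.724 in HFD + IgG1. HFD + PBS replicates 3 and 6 were above all other libraries, and replicate 4 was below the 2 higher normal livers. Ccnb1 (ENSMUSG00000041431, chromosome 13, 100778650 to 100786570, minus strand), which encodes cyclin B1, had 1.28, 0.278 and 0.419 CPM, 14.8, 0.628 and 4.27 and 0.428, 1.55 and 0.422. Its normal diet values spread widely at this low level, and HFD + PBS replicate 4 lay among them. The 2 genes had fitted log2 fold changes of 2.26 (SE 0.90) and 3.32 (SE 1.09) after the high-fat diet, with edgeR adjusted p of 0.206 and 0.158.

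Ccnb2 (ENSMUSG00000032218, chromosome 9, 70407692 to 70421547, minus strand), which encodes the second B-type cyclin, had 1.77, 0.389 and 1.38 CPM in normal diet livers, 13.6, 1.14 and 4.94 in HFD + PBS and 0.642, 1.33 and 0.845 in HFD + IgG1. It differed from Ccnb1 in that HFD + IgG1 replicate 6 was not above the normal range, so that all 3 antibody livers lay inside the range of the normal ones. Its log2 fold change of HFD + IgG1 over HFD + PBS, -2.78 (SE 0.85), had the smallest p among the tested mitosis genes in that comparison and an edgeR adjusted p of 0.140. Ccna2 (ENSMUSG00000027715, chromosome 3, 36564865 to 36572150, minus strand), the cyclin A gene, had 1.83, 0.889 and 0.419 CPM, 20.0, 0.857 and 6.59 and 0.428, 3.52 and 0.543. Here HFD + IgG1 replicate 6 lay above every normal diet library, and the other antibody livers lay at the low end of them. Foxm1 (ENSMUSG00000001517, chromosome 6, 128362967 to 128376146, plus strand), the transcription factor that switches on many of the genes described here, had 1.65, 0.889 and 0.599 CPM, 9.39, 0.514 and 5.10 and 0.285, 1.28 and 0.483. HFD + PBS replicates 3 and 6 were at least 3 times any other library, and HFD + PBS replicate 4 was below all normal diet libraries. The fitted differences of Foxm1 were 2.26 (SE 0.90) after the diet and -2.83 (SE 0.93) with the antibody, with edgeR adjusted p of 0.205 and 0.142.

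Among the mitotic kinases and their partners the genes were not alike. Birc5 (ENSMUSG00000017716, chromosome 11, 117849251 to 117855743, plus strand), which encodes survivin, the subunit that brings the Aurora B kinase to centromeres, had 0.366, 0.333 and 0.719 CPM in normal diet livers, 10.7, 0.685 and 4.79 in HFD + PBS and 0.499, 2.19 and 0.362 in HFD + IgG1. HFD + PBS replicate 3 was 22.7 times and replicate 6 was 10.1 times the normal mean, the largest folds of the tested mitosis genes in those livers, and replicate 4 lay within the normal range. Its log2 fold change after the diet was 3.50 (SE 1.02) with an edgeR adjusted p of 0.128, the lowest among the mitosis genes in that comparison. Aurkb, the Aurora B kinase itself, and Plk1, a kinase that acts from centrosome to midbody, ran in the same order of livers, from 0.285 and 0.181 CPM at their lowest to 11.2 and 11.3 in HFD + PBS replicate 3.

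Nek2 (ENSMUSG00000026622, chromosome 1, 191821444 to 191833050, plus strand), a kinase of centrosome separation, had 4.82, 1.56 and 6.11 CPM in normal diet livers, 10.1, 1.49 and 5.15 in HFD + PBS and 4.78, 3.90 and 3.50 in HFD + IgG1. HFD + PBS replicate 6 lay inside the normal diet range, and HFD + IgG1 replicate 6 lay between the other antibody livers. Its fitted differences were 0.43 (SE 0.64) after the diet and -0.47 (SE 0.64) with the antibody, with edgeR adjusted p of 0.737 and 0.671, and without HFD + PBS replicate 3 they turned to -0.29 and 0.26. Aurka, the Aurora A kinase of spindle poles, had 1.78 to 4.39 CPM in normal diet, 1.88 to 9.30 in HFD + PBS and 2.35 to 4.28 in HFD + IgG1. Melk, a kinase abundant in dividing progenitor cells, had at most 0.721 CPM outside HFD + PBS replicate 3 and 3.88 in it.

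The spindle checkpoint holds chromosomes at metaphase until all are attached. Its genes Bub1, Bub1b, Ttk and Mad2l1 all had their highest level in HFD + PBS replicate 3. Mad2l1 (ENSMUSG00000029910, chromosome 6, 66535390 to 66547220, plus strand), whose product blocks the anaphase-promoting complex, had 1.71, 3.17 and 2.34 CPM in normal diet livers, 11.3, 2.34 and 5.41 in HFD + PBS and 3.21, 3.20 and 3.92 in HFD + IgG1. The 3 antibody livers lay close together and above all 3 normal diet livers. For HFD + IgG1 replicates 5 and 6 this was by a small margin, with 45 and 60 counts against 57 in normal diet replicate 5. HFD + PBS replicate 4 was close to the middle normal liver. Its fitted log2 fold change after the diet was 1.40 (SE 0.50) with an edgeR adjusted p of 0.170. Bub1b, which encodes the checkpoint protein BubR1, had 1.04, 1.67 and 1.56 CPM in normal diet and 14.2, 2.28 and 6.18 in HFD + PBS. Those groups did not overlap, since even HFD + PBS replicate 4 exceeded every normal liver. Ttk, the kinase Mps1 that starts the checkpoint signal, had 4.67, 0.514 and 0.824 CPM in HFD + PBS and 0, 0.427 and 0.181 in HFD + IgG1, where the 0 allows up to 0.214 CPM (3 counts, counting error only). All 3 antibody livers were below all 3 HFD + PBS livers.

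**Figure D2:**
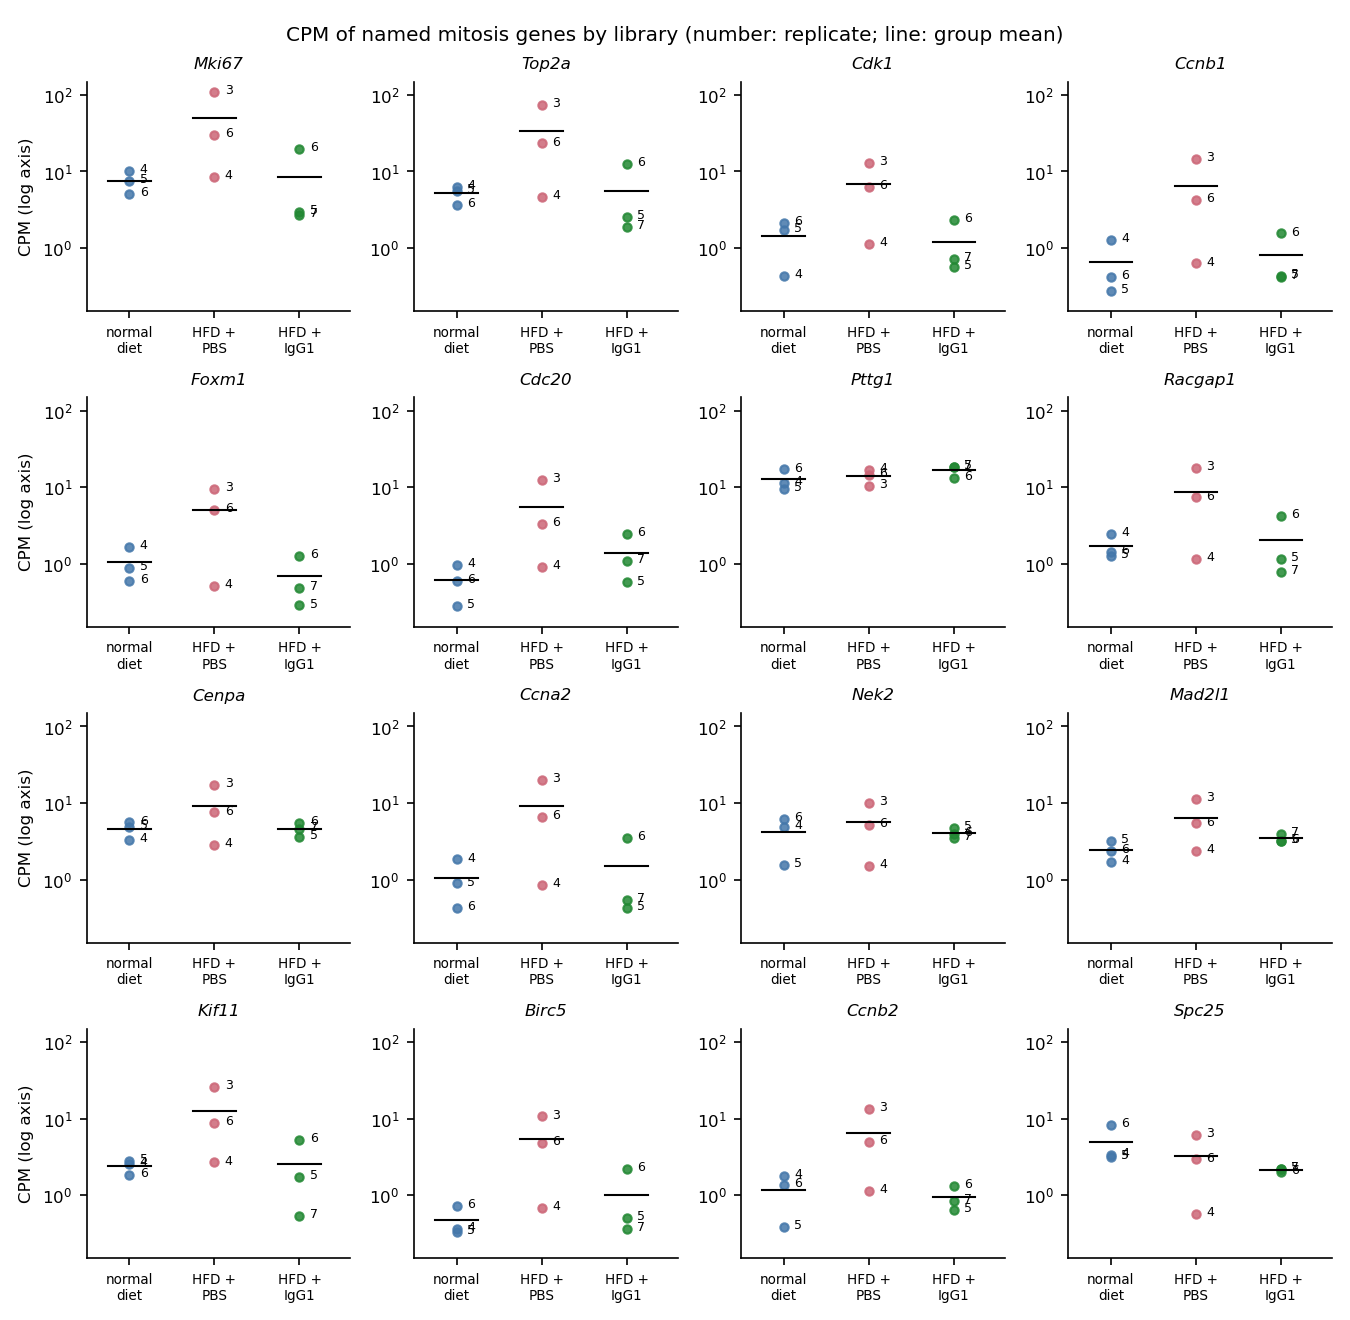
CPM on a log axis for 16 mitosis genes in the 9 livers; each point is 1 library with its replicate number beside it, and each line is a group mean. HFD + PBS replicate 3 is the highest point in every panel but those of Pttg1, where it is at 10.5, and Spc25, where normal diet replicate 6 is highest at 8.21.

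Kinetochore and centromere genes held an exception to this order. Cenpa (ENSMUSG00000029177, chromosome 5, 30666777 to 30674830, plus strand), the histone variant that marks centromeres, had 3.29, 4.89 and 5.57 CPM in normal diet livers, 17.2, 2.86 and 7.52 in HFD + PBS and 3.64, 5.50 and 4.59 in HFD + IgG1. HFD + PBS replicates 3 and 6 were highest, but by 3.75 and 1.64 times the normal mean, less than for most of the 40. Spc25 (ENSMUSG00000005233, chromosome 2, 69193895 to 69206194, minus strand), a subunit of the Ndc80 complex that grips microtubules, had 3.36, 3.17 and 8.21 CPM, 6.17, 0.571 and 2.93 and 2.21, 2.03 and 2.23. Normal diet replicate 6 was its highest library and HFD + PBS replicate 4 its lowest, and all 3 antibody livers lay below all 3 normal ones. It was the only 1 of the 40 with a lower mean log2 CPM after the diet, with a fitted difference of -0.59 (SE 0.68), and its difference of HFD + IgG1 from normal diet was -1.18 (SE 0.69), with edgeR adjusted p of 0.649 and 0.748. Ndc80 and Nuf2, which encode partners of Spc25 in the same complex, did follow the general order, with 4.89 and 9.26 CPM in HFD + PBS replicate 3 against 0.359 to 0.833 in the normal diet livers. Cenpe, a kinetochore motor, and Cenpf, a large kinetochore protein, reached 14.5 and 14.3 CPM in HFD + PBS replicate 3 and had at most 1.53 and 1.04 in normal diet livers.

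Spindle proteins and motors formed the largest group, and all 7 were highest in HFD + PBS replicate 3. Kif11 (ENSMUSG00000012443, chromosome 19, 37376403 to 37421859, plus strand), the motor that pushes spindle poles apart, had 2.56, 2.83 and 1.86 CPM in normal diet livers, 26.1, 2.68 and 8.85 in HFD + PBS and 1.71, 5.34 and 0.543 in HFD + IgG1. HFD + IgG1 replicate 6 lay above the normal range and replicates 5 and 7 below it. Its fitted differences were 2.38 (SE 0.91) after the diet and -2.30 (SE 0.90) with the antibody, with edgeR adjusted p of 0.196 and 0.179. Tpx2, which seeds microtubules, had at most 1.62 CPM in normal diet livers and 18.6 and 6.07 in HFD + PBS replicates 3 and 6. Hmmr, a spindle-associated protein, had 12.3 and 4.79 CPM in the same livers and 0.599 to 0.732 in the normal ones. Dlgap5, a microtubule-bundling protein, had 9.12 CPM in HFD + PBS replicate 3 and 0 in HFD + IgG1 replicate 5, which allows up to 0.214. Nusap1, Kif2c and Kif4 showed the same high library, Kif2c and Kif4 at 6.52 and 6.83 CPM.

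Cytokinesis genes, which part the daughter cells, were also all highest in HFD + PBS replicate 3. Racgap1 (ENSMUSG00000023015, chromosome 15, 99620496 to 99651656, minus strand), a subunit of the centralspindlin complex that positions the cleavage furrow, had 2.44, 1.28 and 1.44 CPM in normal diet livers, 17.7, 1.14 and 7.36 in HFD + PBS and 1.14, 4.27 and 0.784 in HFD + IgG1. HFD + PBS replicate 4 was below every normal diet library, and HFD + IgG1 replicate 6 was above them all. Its fitted differences were 2.35 (SE 0.93) after the diet and -2.07 (SE 0.92) with the antibody, with edgeR adjusted p of 0.206 and 0.208. Kif23, its motor partner, and Ect2, the exchange factor that it recruits, were 6.18 and 7.14 times their normal mean in HFD + PBS replicate 3. Anln, Prc1 and Kif20a, which act on the contractile ring and the central spindle, were 7.36, 13.3 and 7.32 times theirs.

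Anaphase is set off by the anaphase-promoting complex, which Cdc20 activates and which uses the ubiquitin carrier Ube2c to mark securin, the product of Pttg1, for destruction. Cdc20 (ENSMUSG00000006398, chromosome 4, 118432901 to 118437352, minus strand) had 0.976, 0.278 and 0.599 CPM in normal diet livers, 12.3, 0.914 and 3.35 in HFD + PBS and 0.57, 2.46 and 1.09 in HFD + IgG1. Its HFD + PBS replicate 4 lay just under the highest normal liver, and both HFD + IgG1 replicates 6 and 7 lay above it. The fitted difference was 3.17 (SE 0.96) after the diet and -2.00 (SE 0.89) with the antibody, with edgeR adjusted p of 0.136 and 0.206. Ube2c had 0.671, 0.611 and 0.839 CPM in normal diet and 14.0, 1.26 and 3.35 in HFD + PBS, with no overlap. Pttg1 (ENSMUSG00000020415, chromosome 11, 43420250 to 43426251, minus strand) had 11.5, 9.44 and 17.1 CPM in normal diet livers, 10.5, 16.6 and 14.4 in HFD + PBS and 18.5, 13.3 and 18.3 in HFD + IgG1. HFD + PBS replicate 3, the highest library for 38 other genes, was the second lowest for Pttg1. Its fitted differences, 0.13 (SE 0.26) and 0.27 (SE 0.26), had the smallest SE among the tested genes of the 40 and edgeR adjusted p of 0.821 and 0.527; the first turned to -0.05 without normal diet replicate 5.

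Levels between genes were compared as mean CPM per kilobase of exon. Over all 9 livers Pttg1 was highest at 7.21, followed by Mki67 at 2.19, Ccnb2 at 1.89 and Top2a at 1.66, and Cdc25c was lowest at 0.065. In the normal diet livers the 5 highest were Pttg1 at 6.34, Spc25 at 1.54, Aurka at 1.39, Nek2 at 0.922 and Cenpa at 0.782. The same 5 genes had the 5 lowest folds over the normal mean in HFD + PBS replicate 3, at 0.83, 1.26, 2.65, 2.44 and 3.75. The normal diet level enters both measures, once as the level and once as the divisor.

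The first comparison asked how these genes differed between HFD + PBS and normal diet. Mean levels were higher after the high-fat diet for nearly the whole set, by a median difference of 1.68 in log2 CPM over all 40 and with 39 of 40 positive, against a median of -0.00 over all tested genes. The medians by role ran from 1.13 for kinetochore genes to 2.32 for anaphase promotion. By edgeR's quasi-likelihood test with Benjamini-Hochberg adjustment, 0 of the 39 tested genes passed an adjusted p of 0.05, as did 0 (0%) of 14763 genes, and the lowest adjusted p was 0.128 among the 39 and 0.0627 among all. At an unadjusted p under 0.05, 30 of the 39 were higher, against 9.41% of all tested genes, and 0 were lower against 11.4%. The 9 that missed this were Aurka, Nek2, Melk, Cenpa, Ndc80, Spc25, Kif4, Ect2 and Pttg1. Only Bub1b and Ube2c had no overlap between the groups, 2 of 39 against 13.0% of all tested genes, and HFD + PBS replicate 4 was above all normal livers for only these 2 of the 40.

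DESeq2 called 15 of the 40 as higher, against 3.47% of the genes it adjusted, and 0 as lower, against 3.80%, and limma-voom called 0 (0%). The 15 were Ccnb1, Ccnb2, Cdk1, Birc5, Plk1, Bub1, Bub1b, Cenpf, Tpx2, Dlgap5, Hmmr, Prc1, Racgap1, Cdc20 and Ube2c. Without HFD + PBS replicate 3 the median difference was 0.79, and without replicate 4 it was 2.66.

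**Figure D3:**
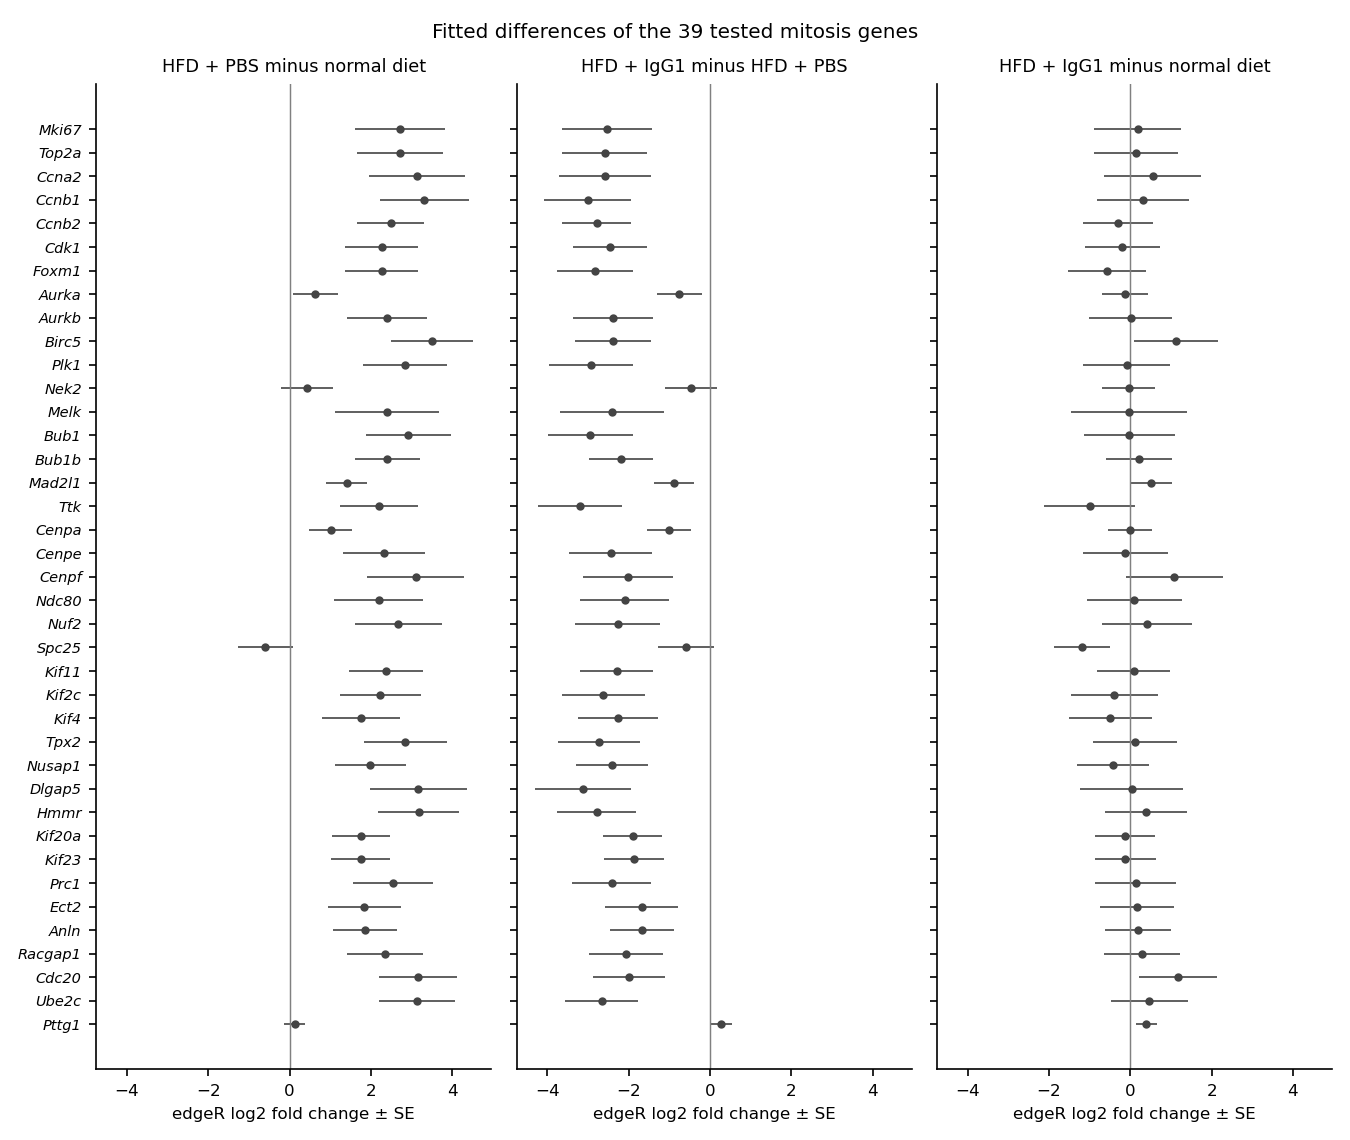
Fitted log2 fold change (point) and SE (bar) from edgeR for the 39 tested mitosis genes, in order of role, in 3 comparisons of 3 livers with 3. Points run up to 3.50 for Birc5 in the left panel and lie left of 0 in the middle one for every gene but Pttg1, and no gene passed an adjusted p of 0.05.

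The second comparison asked how HFD + IgG1 differed from HFD + PBS. It shares the HFD + PBS livers with the first, so the 2 sets of differences are not independent. Mean levels were lower in the antibody group for 39 of the 40, by a median difference of -1.92 in log2 CPM, against 0.04 over all tested genes. The exception was Pttg1. edgeR called 0 of the 39 (0% of all tested genes in either direction), with a lowest adjusted p of 0.140. At an unadjusted p under 0.05, 24 of the 39 were lower, against 11.6% of all tested genes, and these included all 7 spindle genes, 4 of 5 tested mitotic entry genes and 3 of 4 checkpoint genes, but 1 of 6 kinetochore genes. Only Ttk had no overlap, 1 of 39 against 11.2% of all tested genes.

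DESeq2 called 16 of 39 as lower in HFD + IgG1, against 4.92% of the genes it adjusted, and limma-voom called 0 (0%). Those 16 included Foxm1, Ttk, Cenpe and Nusap1, which it did not call in the first comparison. The median difference was -1.08 without HFD + PBS replicate 3 and -2.97 without HFD + PBS replicate 4. Without HFD + IgG1 replicate 6, the antibody liver with the highest levels, edgeR called 7 of the mitosis genes as lower, namely Aurkb, Birc5, Plk1, Bub1, Bub1b, Nuf2 and Kif2c, against 8.37% of all tested genes, and 2356 genes in all in either direction.

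**Figure D4:**
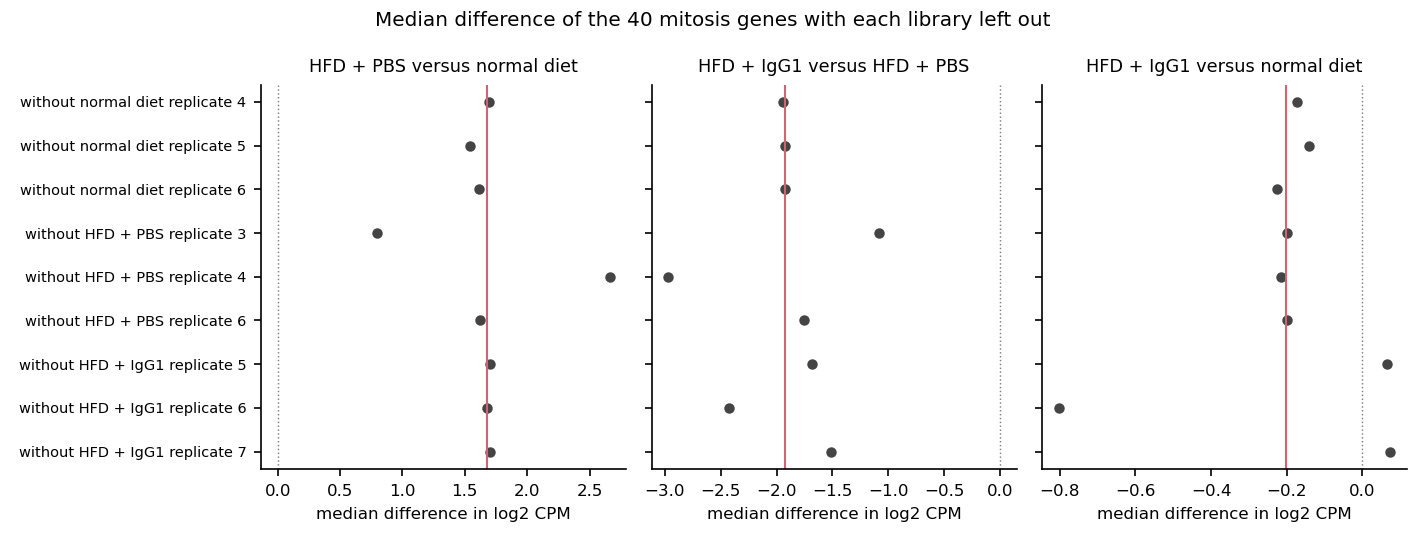
Median difference in log2 CPM over the 40 mitosis genes when each library is left out in turn (points), beside the value with all libraries (red line) and no difference (dotted line), for the 3 comparisons on separate axes. HFD + PBS replicates 3 and 4 move the first 2 panels most, to 0.79 and 2.66 and to -1.08 and -2.97, and HFD + IgG1 replicate 6 moves the third most, to -0.80.

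The third comparison set HFD + IgG1 against normal diet. The median difference in log2 CPM was -0.20 over the 40 genes, with 27 lower and 13 higher, against -0.00 over all tested genes. It ran from -0.80 without HFD + IgG1 replicate 6 to 0.07 without HFD + IgG1 replicate 7. By contrast edgeR's log2 fold change, which compares group means, was positive for 22 of the 39, against 50.4% of all tested genes, and negative for 17, against 49.6%. Mki67 shows the split, with a difference of -0.40 in mean log2 CPM and a fitted log2 fold change of 0.19 (SE 1.07) at an edgeR adjusted p of 0.975. No gene of the 39 had an unadjusted p under 0.05, against 3.83% of all tested genes higher and 3.21% lower, and edgeR, DESeq2 and limma-voom called 0 of them (0%, 0.403% and 0% of all genes higher, and 0%, 0.311% and 0% lower). Mad2l1 was higher and Spc25 lower with no overlap, 1 of 39 each, against 5.56% and 6.39% of all tested genes. The gap for Mad2l1 was small, with 3.20 CPM in HFD + IgG1 replicate 6 against 3.17 in normal diet replicate 5.

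Other genes of mitosis, 75 from condensins, kinetochores, the checkpoint, the passenger complex, the spindle and the anaphase-promoting complex, showed the same order of livers in part. Of these, 61 were highest in HFD + PBS replicate 3 and 28 had the full order of livers, against 20.3% and 3.16% of all tested genes. Their median differences were 1.11, -1.31 and -0.05 in log2 CPM in the 3 comparisons. Of 66 tested, 28 were higher after the diet and 33 lower with the antibody at an unadjusted p under 0.05, against 9.41% and 11.6% of all tested genes, and edgeR called 0 (0%) after adjustment. The 3 with the smallest p after the diet were Fbxo5, an inhibitor of the anaphase-promoting complex, at 1.92 (SE 0.48, edgeR adjusted p 0.0987), Tacc3, which bundles spindle microtubules, at 2.42 (SE 0.70, edgeR adjusted p 0.128), and Cep55, which completes abscission, at 3.66 (SE 1.12, edgeR adjusted p 0.135). With the antibody they were Cdc25b, a phosphatase that starts mitosis, at -2.09 (SE 0.54, edgeR adjusted p 0.140), Cit, a cytokinesis kinase, at -1.92 (SE 0.50, edgeR adjusted p 0.140), and Fbxo5 at -1.59 (SE 0.47, edgeR adjusted p 0.140). For antibody against normal diet they were Bub3, a checkpoint protein, at 0.44 (SE 0.19, edgeR adjusted p 0.696), Bora, which activates Aurora A, at 0.75 (SE 0.43, edgeR adjusted p 0.748), and Anapc4, a subunit of the anaphase-promoting complex, at 0.34 (SE 0.20, edgeR adjusted p 0.748). Fbxo5 had 1.10, 1.11 and 0.479 CPM in normal diet livers, 5.33, 2.57 and 2.32 in HFD + PBS and 0.927, 1.07 and 1.39 in HFD + IgG1, and all 3 HFD + PBS livers lay above the rest.

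The anaphase-promoting complex is present in resting cells too. Its subunits and regulators, 11 listed genes, had median differences of 0.21 and -0.03 in the first 2 comparisons, 4 of them were highest in HFD + PBS replicate 3, and 0 had the full order of livers. Genes of DNA replication, which precedes mitosis, had medians of 0.94 and -1.05 over 18 genes, and all 18 were highest in HFD + PBS replicate 3, against 20.3% of all tested genes. At an unadjusted p under 0.05, 11 of them were higher after the diet and 8 lower with the antibody, against 9.41% and 11.6% of all tested genes. Among 13 genes of the DREAM complex, its B-MYB partner and NF-Y, the medians were 0.06 and 0.06, and 0 had the full order of livers. Between HFD + PBS and normal diet 3 of the 13 were higher with no overlap and 1 was lower. Over all tested genes those shares were 13.0% and 15.3%. Within that list Mybl2, the B-MYB gene, had 0.732, 0.722 and 1.14 CPM in normal diet, 5.38, 1.60 and 3.14 in HFD + PBS and 0.214, 0.908 and 0.241 in HFD + IgG1, so that all 3 HFD + PBS livers were above the rest.

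Neutrophil precursor, monocyte and macrophage, and Kupffer cell markers had their 3 highest summed levels in the same livers as the mitosis genes. Erythroid precursor markers did not. Neutrophil precursor markers (Elane, Mpo, Prtn3, Ctsg, Ms4a3, Camp, Ltf and Ngp), the granule genes of dividing and maturing myeloid cells, summed to 124, 21.3 and 5.21 CPM in normal diet livers, 2779, 218 and 903 in HFD + PBS and 2.14, 434 and 8.81 in HFD + IgG1. All 8 were highest in HFD + PBS replicate 3, against 20.3% of all tested genes. The full order of livers, seen for 29 of the 40 mitosis genes, held for 7 of 8, against 3.16%. Unlike the mitosis genes, neutrophil precursor markers were also above every normal liver in HFD + PBS replicate 4, at 218 against at most 124 summed CPM. Among the normal diet livers their sums ran from 5.21 to 124 CPM, where those of the 40 mitosis genes ran from 68.0 to 82.8. In HFD + IgG1 replicate 5 the sums were 2.14 and 57.4 CPM, and Pttg1 alone made up 18.5 of the 57.4. Without Mki67, Top2a and Pttg1 the mitosis genes summed to 33.3 CPM there, against 45.5 to 57.0 in the normal diet livers. Ctsg and Ms4a3 were at 0 in HFD + IgG1 replicate 5, and Ms4a3 also in replicate 7. Mature neutrophil markers summed to 698, 2033 and 93.2 CPM, 5643, 3250 and 2876 and 27.9, 1929 and 58.7. Of these, 7 of 8 were highest in HFD + PBS replicate 3 and 4 of 8 were in the full order, with Ly6g at 0 in HFD + IgG1 replicates 5 and 7. Monocyte and macrophage markers summed to 433, 461 and 358 CPM, 1768, 786 and 1141 and 167, 834 and 288. Of these, 6 of 8 were highest in HFD + PBS replicate 3 and 2 of 8 were in the full order. For Kupffer cell markers the sums were 1823, 2392 and 1869 CPM, 2901, 2531 and 3105 and 725, 2592 and 1078. None of the Kupffer cell markers was highest in HFD + PBS replicate 3.

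T and NK cell and stellate cell markers had 6 of 8 genes each highest in HFD + PBS replicate 3. Cholangiocyte markers had 5 of 7 and plasma cell markers 2 of 5 highest there, against 20.3% of all tested genes. In the full order the lists had 0, 0, 2 and 0 genes, as named, against 3.16%. Spp1 stands in both the cholangiocyte and the monocyte and macrophage lists. Erythroid precursor, Kupffer cell, endothelial, B cell and hepatocyte markers had 0 genes in the full order, and Rhag, Ermap and Hemgn of the erythroid list were at 0 in at least 1 library. Erythroid markers summed to 56.7, 23.2 and 77.6 CPM in normal diet livers, 21.9, 15.1 and 33.3 in HFD + PBS and 98.7, 32.5 and 121 in HFD + IgG1. While these sums were lowest in HFD + PBS as a group, the list's median log2 level over the normal diet mean was not. That median was -0.16, 0.001 and 0.19 in normal diet, 0.15, 0.43 and 0.86 in HFD + PBS and 0.15, 0.42 and -0.17 in HFD + IgG1. Hepatocyte markers summed to 77182, 68535 and 84444 CPM in normal diet livers, 48533, 86047 and 68152 in HFD + PBS and 163050, 81986 and 128311 in HFD + IgG1, lowest in HFD + PBS replicate 3. The scaling factor was also most extreme there, at 1.26 against 0.865 to 1.11 in the others. The part of these cell types, and of scaling, in the mitosis gene levels was not tested.

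**Figure D5:**
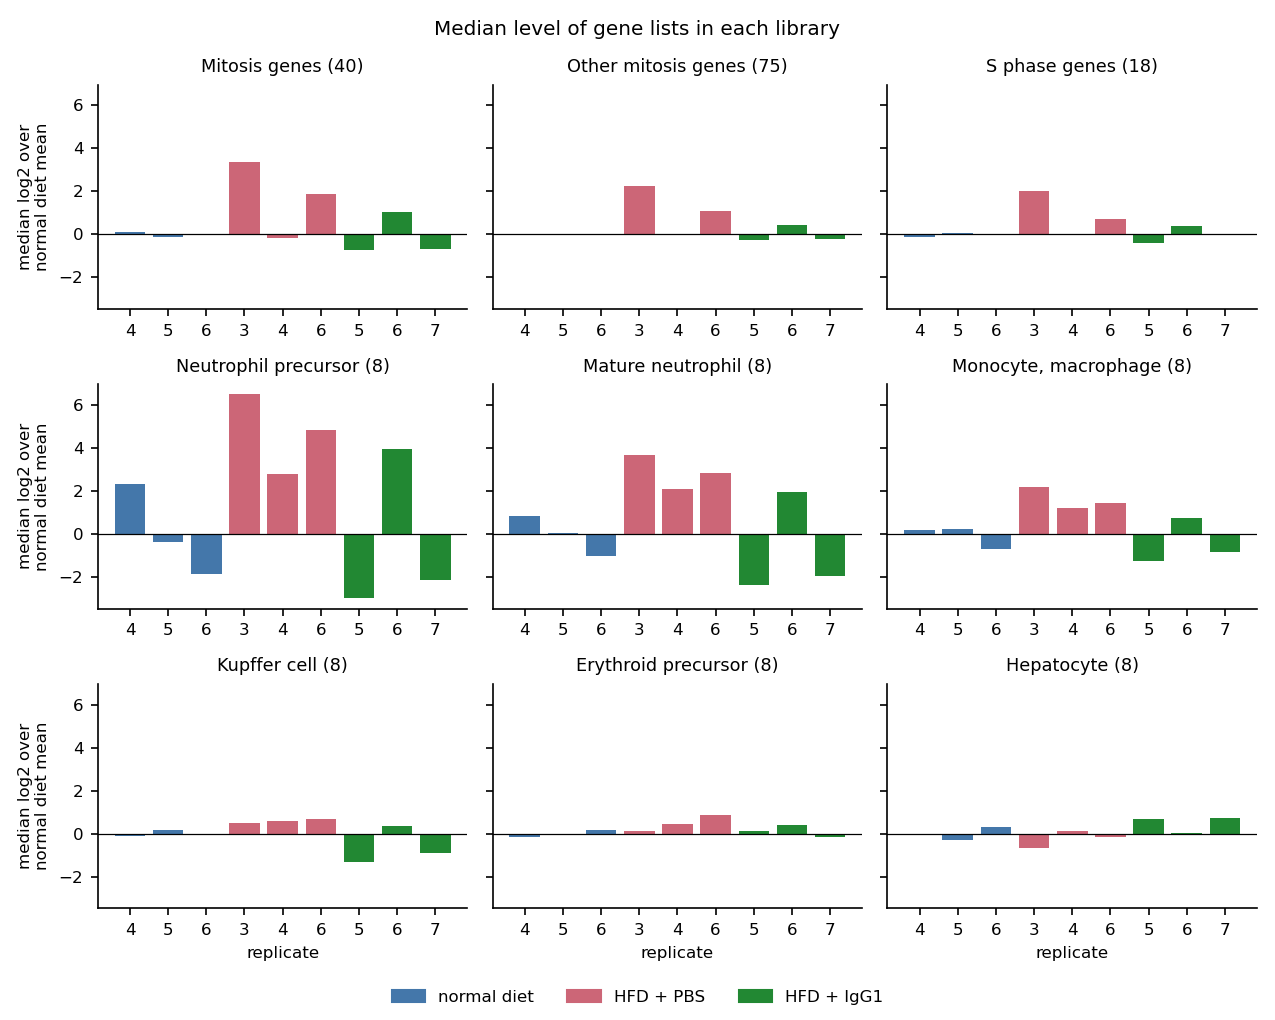
Median log2 level over the normal diet mean for 9 gene lists, with 1 bar per liver library labelled by replicate and coloured by group. Mitosis, other mitosis, S phase, neutrophil precursor, mature neutrophil, and monocyte and macrophage genes share their tallest bar, HFD + PBS replicate 3. Kupffer cell, erythroid precursor and hepatocyte genes do not.

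When the 3 libraries whose Apoe, Xist or Y-linked counts go against the labels were left out, the median differences were 1.56, -1.49 and 0.02 in the 3 comparisons, from 2 livers against 2 in each, and edgeR called 0 of the mitosis genes. HFD + PBS replicate 6, with the second highest levels, and HFD + IgG1 replicate 5, with the lowest summed level, are among the 3. For 12 of the 40 genes the exons overlap another annotated gene, for example Ube2c with Tnnc2, Cdc20 with Elovl1, Ccna2 with Exosc9, Foxm1 with Tex52 and Kif20a with Cdc23. Ccnb1, Ccnb2 and Kif4 have processed pseudogenes, and since the counting method is not given, reads of such neighbours and copies may be shared among these counts.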

How the data were processed

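Values were the raw gene counts that the authors deposited, 1 column per liver library, not normalized. mm10 and Bowtie 0.12.2 appear in the submitters' processing notes without a stated role, while no counting program, annotation or strand setting was given in the sources used here. GENCODE M21 named 54495 of 54532 gene IDs, and 37 were not named. Genes were kept with filterByExpr of edgeR (minimum count 10, minimum total 15), which left 14763. The counts of all 9 libraries entered 1 edgeR quasi-likelihood fit with robust estimation and TMM scaling, from which the 3 comparisons were taken. The common dispersion was 0.101, a coefficient of variation of 0.318 between livers. Benjamini-Hochberg adjustment ran over all tested genes, with a threshold of 0.05. Each SE is the size of the fit's unshrunken log2 fold change divided by the root of the F value. The log2 fold changes printed are the shrunken ones that edgeR reports. CPM is the count per 1000000 of library total times TMM factor, and differences in log2 CPM use a prior count of 2 and cover genes the filter removed. The heat map used a pseudocount of 0.25 CPM. Shown floors of 3 counts cover counting error only. Software was R 4.3.3, edgeR 4.0.16, limma 3.58.1 and DESeq2 1.42.0, and the scripts were tested on simulated data.

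The 40 genes, their roles and the lists of related genes and of 14 cell types were chosen with earlier results of these data known, and 1 listed marker, Ahsp, was not found in the table. Values in every library were given for Mki67, Top2a, Cdk1, Ccnb1, Foxm1 and Cdc20, for the gene with the highest mean CPM in each of the 8 roles, for the gene with the smallest p in each comparison and for any gene with the other sign in the diet comparison. Members of other lists were named by smallest p (3 per comparison) or where set beside the mitosis genes. Alternatives were RLE and upper-quartile scaling, no filter, at least 1 CPM in 3 libraries, DESeq2, limma-voom, no robust estimation, only the 6 libraries compared, the replicate number as a block, each library left out, and the 3 libraries at odds with their labels left out. Replicates of a group differed beyond sampling noise, with 56.0 to 79.1% of genes of at least 100 counts outside Poisson limits of 1.96. An exact permutation test of 3 livers against 3 cannot go below p = 0.1 and was not used.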

Additional observations from a re-analysis of the deposited data

How the results depend on the processing

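Adjusted calls depended on the tool and the filter, while the median difference of the 40 genes kept its sign in the first 2 comparisons under every alternative that gave one. edgeR called 0 genes in each comparison, with 3076, 3569 and 1040 at an unadjusted p under 0.05, and limma-voom called 0. DESeq2 called 1138 genes after the diet, 1270 with the antibody and 101 for antibody against normal diet, and 15, 16 and 0 of the mitosis genes. With no filter edgeR called 274, 57 and 6 genes. With only the 6 libraries compared it called 184 after the diet and 3 for antibody against normal diet, and 2 after the diet when the 3 libraries at odds with the labels were left out. With 1 library left out the genes called ran from 0 to 576 after the diet (14 without HFD + PBS replicate 6, 576 without HFD + IgG1 replicate 6), from 0 to 2356 with the antibody (2356 without HFD + IgG1 replicate 6) and from 0 to 6 for antibody against normal diet (4 without HFD + PBS replicate 6, 6 without HFD + IgG1 replicate 6). The mitosis genes called then ran from 0 to 7 with the antibody (7 without HFD + IgG1 replicate 6) and were 0 in the other comparisons. Median differences ran from 0.79 to 2.66, from -2.97 to -1.08 and from -0.80 to 0.07; the cause was not tested.

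The sign of single genes near 0 changed. For antibody against normal diet, Mki67 was -0.32 by limma-voom, -0.03 without normal diet replicate 6 and from -1.40 (without HFD + IgG1 replicate 6) to 0.61 (without HFD + IgG1 replicate 7) over the libraries left out. Without HFD + PBS replicate 3, Nek2 was -0.29 after the diet and 0.26 with the antibody, and Spc25 was 0.26 with the antibody. Without HFD + PBS replicate 4 they were 0.91, -0.96 and -1.12. Leaving out normal diet replicate 5 gave -0.048 for Pttg1 after the diet, leaving out normal diet replicate 6 gave 0.40, leaving out HFD + PBS replicate 4 gave -0.0018, and leaving out the 3 libraries at odds gave -0.046. With the replicate block edgeR called 0 genes, the medians were 0.59, -0.69 and -0.08, and Mki67 was -0.054 for antibody against normal diet, Nek2 -0.57 after the diet and 0.80 with the antibody, and Spc25 0.28 with the antibody. HFD + PBS replicate 3 and HFD + IgG1 replicate 7 have numbers that no other group shares and so add nothing to the blocked fit. Correlations of the deviations of same-numbered libraries were -0.49 to 0.01. The numbers are not said to mark litters, cages or days, and with 3 livers per group these correlations cannot settle whether they do. At low CPM, as for Cdc25c, Melk and Ttk, counts of 0 to 10 in some libraries limit the precision.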

Other observations

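Genes outside the lists whose log2 CPM over the 9 libraries ran most like the mean of the mitosis genes included other genes of dividing cells and genes of blood cells. By Pearson r over 9 libraries, given as a description, the 10 closest were Dck at 0.988, Itgb2l at 0.987, Pclaf at 0.978, Prr11 at 0.974, Grk2 at 0.974, Atp8b4 at 0.970, Ptpn7 at 0.969, Ppbp at 0.969, Atp2a3 at 0.969 and Ccdc88c at 0.968. Dck encodes deoxycytidine kinase, which recycles DNA building blocks, and Pclaf a partner of the replication clamp PCNA. Pclaf had 2.32, 2.11 and 1.08 CPM in normal diet livers, 24.0, 1.37 and 7.72 in HFD + PBS and 0.570, 3.68 and 0.784 in HFD + IgG1. Its 3 highest livers were those of Mki67. Itgb2l, an integrin gene of neutrophils, had 4.33, 2.67 and 3.77 CPM in normal diet, 29.5, 3.77 and 12.8 in HFD + PBS and 2.42, 6.62 and 1.93 in HFD + IgG1, in the same order of livers. Ppbp, a platelet chemokine gene, had 16.3 CPM in HFD + PBS replicate 3 and 0.713 to 4.63 elsewhere. The points share libraries and scaling, and HFD + PBS replicate 3 is the highest point for all 10 genes.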
